A study of Mus musculus with 3 samples.

Results

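Small nucleolar RNAs (snoRNAs) and small Cajal body RNAs (scaRNAs) are short noncoding RNAs of the cell nucleus, and 20 of their genes carried counts in cytosolic RNA of mouse bone-marrow-derived macrophages. A gene was taken when its annotated type was snoRNA or scaRNA and its expected count was at least 10 in at least 2 of the 3 libraries. The rule chose 20 of 1558 annotated snoRNA or scaRNA genes (1.28%), out of 55536 genes in all. The genes were thus chosen by their expected counts in these same libraries. Of the 20, 14 were typed snoRNA and 6 scaRNA. The levels below are therefore a description, and where a test between libraries is given nothing is read from its count.

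The macrophages were primary cells of strain C57BL/6J. They met Lipid A, the membrane anchor of bacterial lipopolysaccharide, at 100 ng/ml for 12 h, were washed out for 12 h, and met 100 ng/ml Lipid A again for 120 min. Total RNA of the cytosolic fraction was sequenced after removal of ribosomal RNA, from 1 µg of RNA with a labelled size range of 250 to 400, given without a unit. There was 1 group with 3 libraries, replicates 1, 2 and 3, which share 1 donor entry, and the age and sex of the animals were not collected. No untreated or nuclear libraries were analysed here, so values are set side by side between replicates only. Nothing in the labels says that the replicates are separate animals or cultures, so the spread between them may be technical.

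Depth was 29376859 expected counts in replicate 1, 64822118 in replicate 2 and 37665844 in replicate 3. CPM values below are counts relative to the library total after TMM scaling, which corrects for differences in composition. TPM is the authors' measure per length. All 6 macrophage markers looked up (Lyz2, Csf1r, Adgre1, Cd68, Itgam and Fcgr1) were above 1 TPM in every library, with a summed 4327, 4254 and 4185 TPM. The 14 markers of other cell types summed to 7.86, 4.25 and 7.40 TPM, and Cd3g, Epcam and Hba-a1 were at 0. Replicate 3 stood apart in long noncoding RNAs listed here as nuclear-retained, whose summed CPM was 1581, 958 and 11206. Gm26917 alone gave 473, 165 and 4753 of these, and without it the sum was 1108, 793 and 6453. Whether the RNAs on this list, Gm26917 included, were retained in the nucleus of these cells was not tested. In bulk RNA, fewer cells that hold an RNA and less of it per cell cannot be told apart.

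As background, box C/D snoRNAs carry the motifs called box C and box D, bind fibrillarin and guide ribose methylation. Box H/ACA snoRNAs end shortly after an ACA, bind dyskerin and guide pseudouridylation. Most of both kinds act on ribosomal RNA in the nucleolus and are cut from introns of host genes, while scaRNAs act on spliceosomal RNAs in Cajal bodies. A few, U3 and the Snora73 RNAs among them, take part in cleavage or folding of the ribosomal RNA precursor instead of guiding modification.

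The sequences below are those on which the results turn. They are RNA-strand sequences of the mm10 annotation, GENCODE release M21, written as DNA from 5′ to 3′. The first set shows the first and last 60 bases of the most counted gene, Gm22009 (chr3:69085105-69085447, minus strand), and the whole of Snord17 (chr2:144265979-144266216, minus strand). Capitals mark TGATGA, the core of box C, and CTGA, box D.
Gm22009, 5′ end: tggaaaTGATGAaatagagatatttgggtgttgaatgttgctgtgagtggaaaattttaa
Gm22009, 3′ end: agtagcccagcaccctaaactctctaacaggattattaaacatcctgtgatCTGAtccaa
Snord17: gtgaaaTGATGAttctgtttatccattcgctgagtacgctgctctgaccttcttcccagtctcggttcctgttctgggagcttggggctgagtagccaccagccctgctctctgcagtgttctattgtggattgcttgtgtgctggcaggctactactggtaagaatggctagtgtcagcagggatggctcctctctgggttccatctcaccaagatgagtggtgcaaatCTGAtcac
The next pair shows the near-identical Snora73a (chr4:132352775-132352979) and Snora73b (chr4:132352322-132352526), both on the minus strand. Capitals mark the ACA that stands 3 bases before the 3′ end.
Snora73a: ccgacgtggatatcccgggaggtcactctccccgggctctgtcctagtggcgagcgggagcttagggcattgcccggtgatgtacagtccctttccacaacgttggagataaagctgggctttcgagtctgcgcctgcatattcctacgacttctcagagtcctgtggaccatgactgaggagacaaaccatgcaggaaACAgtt
Snora73b: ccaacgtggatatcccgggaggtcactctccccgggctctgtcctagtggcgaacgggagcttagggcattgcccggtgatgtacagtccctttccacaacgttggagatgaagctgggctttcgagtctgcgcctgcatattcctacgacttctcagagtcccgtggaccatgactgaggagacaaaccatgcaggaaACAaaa
The last pair shows Rnu3b1, 1 of 4 identical U3 genes (chr11:87443237-87443452, plus strand), and Snord22, the shortest gene of the 20 (chr19:8725866-8725991, plus strand). Capitals mark TGATGA and CTGA in Rnu3b1, and CTGA in Snord22.
Rnu3b1: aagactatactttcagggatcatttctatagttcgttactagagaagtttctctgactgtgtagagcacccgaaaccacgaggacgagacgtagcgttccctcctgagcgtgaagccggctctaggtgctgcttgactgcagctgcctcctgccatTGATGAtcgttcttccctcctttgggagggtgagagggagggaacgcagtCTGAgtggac
Snord22: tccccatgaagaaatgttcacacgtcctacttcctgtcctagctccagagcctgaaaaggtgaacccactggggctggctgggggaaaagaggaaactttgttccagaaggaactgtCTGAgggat

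The sequences and lengths of the counted genes are set beside those of all annotated snoRNA and scaRNA genes as a description. The pair of TGATGA anywhere and CTGA within the last 20 bases was present in 12 of the 20, against 23.0% of the 1558 annotated genes. All 5 U3 genes were among the 12, and 4 of these have the same sequence. ACA 3 bases before the 3′ end was present in 6 of the 20, against 19.3% of those annotated. Only the RNA strand was searched, with exact letters and each motif by itself, so matches may overlap. Gm23262 and Snord22 held neither the pair nor the ACA, which says only that these letters are not there. The median length was 216 bases for the 20 genes and 128 for the annotated set. Of the 39 annotated genes of at least 200 bases, 15 were counted (38.5%), and of the 1519 shorter ones 5 were (0.329%). The 5 U3 genes, of 213 or 216 bases, are among the 15 and weigh on the median as well. The counted genes ranged from 126 bases (Snord22) to 414 bases (Scarna2). Whether the labelled size range decided which genes were counted was not tested.

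Scarna genes and genes of type scaRNA held most of the counts. This class of 7 genes took 85.7%, 84.6% and 83.6% of the counts of the 20 in replicates 1, 2 and 3. Gm22009, an scaRNA gene in an intron of Kpna4, which encodes a nuclear import receptor, alone took 52.2% of the counts of the 20 in replicate 1 (exact 95% interval 49.8 to 54.6), 56.8% in replicate 2 (55.4 to 58.2) and 53.2% in replicate 3 (52.2 to 54.3). Its expected counts were 912, 2716 and 4600, which made 31.6, 43.1 and 117 CPM (64.0 ± 46.5, SD, n = 3). Replicate 3 was the high one, at 3.14 times the mean of the other replicates.

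Scarna10, the scaRNA that guides both kinds of modification on U5 spliceosomal RNA, was next. It lies in the Ncapd2 gene of a condensin subunit (chr6:125186359-125186683, minus strand). It held 330, 795 and 1406 counts, or 11.4, 12.6 and 35.9 CPM (20.0 ± 13.8, SD, n = 3), and 64.7, 55.4 and 185 TPM. Scarna2, which guides methylation of U2 spliceosomal RNA, had no annotated host (chr3:108554338-108554751, minus strand). It held 168, 377 and 884 counts, or 5.83, 5.98 and 22.6 CPM (11.5 ± 9.61, SD, n = 3), and 18.8, 15.3 and 66.3 TPM. For both genes replicates 1 and 2 lay close together and replicate 3 lay well above them.

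The other 4 genes of the class were lower. Gm25395 and Scarna6, both in introns of the autophagy gene Atg16l1, held 36, 56 and 135 counts and 10, 16 and 54 counts in replicates 1, 2 and 3. Scarna13, a box H/ACA scaRNA in Snhg10, held 37, 64 and 127 counts. Gm26083, in the long noncoding host Snhg20, held 4.82, 18.9 and 18.2 counts and was the lowest of the 20 by mean CPM, at 0.310 ± 0.149 (SD, n = 3). In CPM all 4 were highest in replicate 3, by 3.22, 4.59, 2.82 and 1.99 times the mean of the other replicates for Gm25395, Scarna6, Scarna13 and Gm26083. Their TPM in replicate 3, in the same order, was 29.4, 12.8, 26.7 and 14.4.

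**Figure D1:**
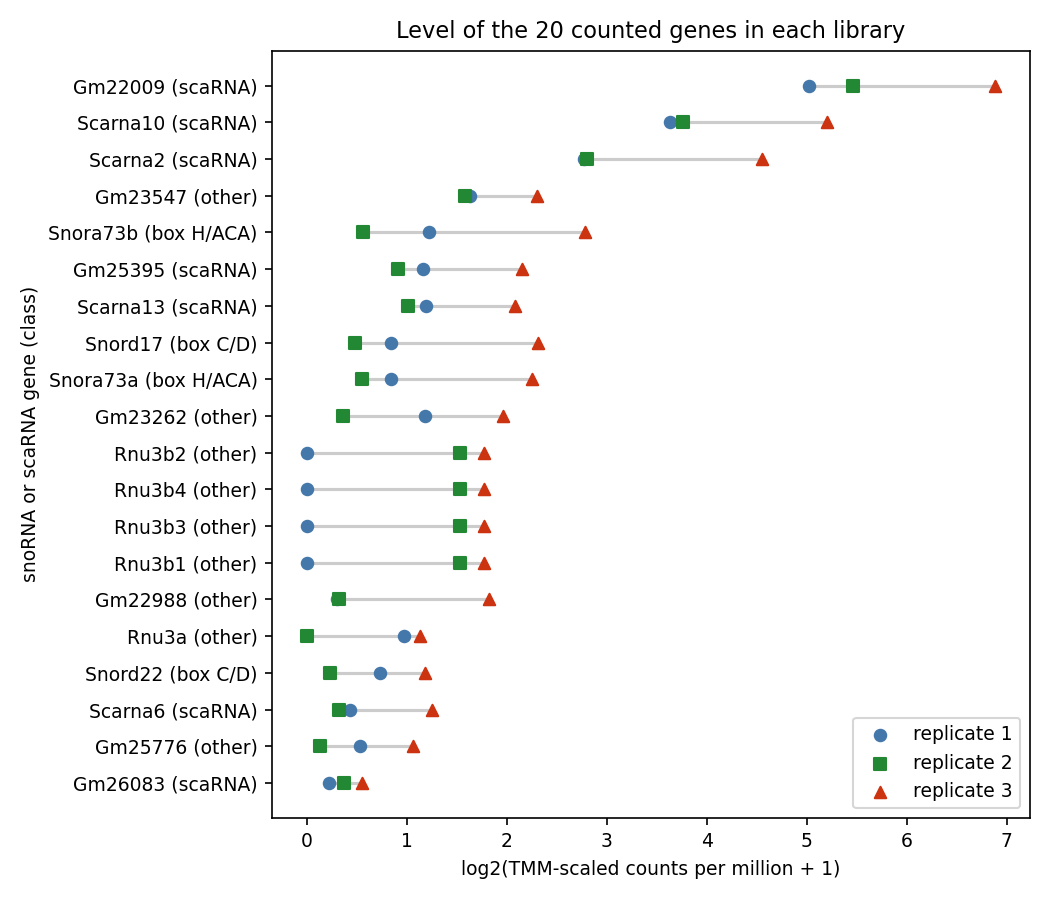
Level of each of the 20 genes on the scale log2(TMM-scaled CPM + 1), with 1 point per library and the class of the gene in brackets; grey lines join the lowest and the highest library. Replicate 3 is the highest point in every row, and Gm22009 reaches 117 CPM there against 31.6 and 43.1 in replicates 1 and 2.

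Box H/ACA genes named Snora were 2, and both act in pre-rRNA processing. Snora73b held 38.8, 30.3 and 230 counts, which made 1.34, 0.481 and 5.87 CPM (2.57 ± 2.90, SD, n = 3). Snora73a held 22.8, 29.6 and 147 counts, or 0.791, 0.470 and 3.76 CPM (1.67 ± 1.81, SD, n = 3). Replicate 3 was 6.43 times the mean of the other replicates for Snora73b and 5.96 times for Snora73a, and replicate 2 was the lowest for both. By TPM Snora73b had 34.5, 9.68 and 140 and Snora73a 20.3, 9.44 and 89.4. The sequences printed above differ at 7 of 205 positions (96.6% identity), counted from 1 at the 5′ end, with the base of Snora73a first: G3A, G54A, A111G, T164C, G203A, T204A and T205A. Reads away from these positions could belong to either gene, so the split between the pair is uncertain. The antisense gene Gm17300 overlaps both and held 11.9, 23.0 and 36.6 counts. Whether the counting used strand is not given in the sources used here, so reads of Gm17300 and of the pair may not be told apart.

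Box C/D genes named Snord were also 2. Snord17, a long box C/D snoRNA in an intron of the sorting nexin gene Snx5, held 23, 25 and 156 counts, or 0.798, 0.397 and 3.98 CPM (1.73 ± 1.96, SD, n = 3). Its replicate 3 was 6.66 times the mean of the other replicates, and its TPM was 11.6, 4.43 and 53.0. Snord22, which acts in processing of small-subunit ribosomal RNA and lies in the host gene Snhg1, held 19.0, 11.0 and 49.9 counts, or 0.659, 0.174 and 1.27 CPM (0.702 ± 0.551, SD, n = 3). Both were lowest in replicate 2 and highest in replicate 3.

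Of the other snoRNAs known for pre-rRNA cleavage or folding, Snord118 (U8), Snord13 and the Snord14 genes Snord14a, Snord14c, Snord14d and Snord14e were at 0 counts in every library. A count of 0 allows up to 0.104, 0.0476 and 0.0765 CPM in replicates 1, 2 and 3, taking 3 counts as the limit, for counting error only. For Snord13 and the Snord14 genes the tables give an effective length of 0, so the tables give them no usable TPM. Snord118, of 135 bases, had effective lengths of 2.11, 1.97 and 1.99 bases. In the second quantification it had 4, 10 and 19 counts. These zeros therefore do not show that the RNAs were absent.

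Genes with other symbols made up the remaining 9, of which 5 were U3 genes. Gm23547, in the prohibitin gene Phb2, held 60.6, 126 and 154 counts, or 2.10, 2.00 and 3.94 CPM (2.68 ± 1.09, SD, n = 3). Gm23262, in the translation factor gene Eif4g2, held 36.9, 17.9 and 113 counts, with 1.28, 0.284 and 2.89 CPM. Gm25776, in the transcription factor gene Gtf2a1, held 13, 6 and 43 counts, with 0.451, 0.0952 and 1.10 CPM. Replicate 2 was the low library for these 3 genes and replicate 3 the high one. By TPM, Gm23547 had 19.9, 14.6 and 34.0, Gm23262 84.6, 15.5 and 182, and Gm25776 83.8, 15.4 and 196.

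Gm22988, in the gene of the translation helicase Eif4a1, held 6.89, 15.9 and 99.6 counts, which made 0.239, 0.252 and 2.54 CPM (1.01 ± 1.33, SD, n = 3). Replicate 3 was 10.3 times the mean of the other replicates, the highest ratio among the 15 genes other than U3, and Gm23547 had the lowest at 1.92. The median ratio over those 15 genes was 3.70.

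U3, the box C/D RNA that starts cleavage of the ribosomal RNA precursor, is annotated as 10 entries at 5 loci, each locus holding a pair that differs by 1 base at the 3′ end. The 4 Rnu3b entries of 216 bases have the same sequence, and the 4 of 215 bases are that sequence without its last base. The expected counts moved between these twins from library to library. The 216-base Rnu3b genes each held 0, 119 and 95 counts in replicates 1, 2 and 3, while each 215-base twin held 38.8, 0 and 0. The 213-base Rnu3a gene held 28, 0 and 47 counts, and its 214-base twin 0, 51 and 0. The authors' TPM interval for Rnu3b1 in replicate 3 ran from 9e-06 to 103, so its level as a single entry was not resolved. Reads cannot tell such copies apart, so U3 is also given as a sum. Counts over the 20 genes below keep the 5 U3 genes as the rule gives them.

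Summed over all 10 entries, U3 had 183, 527 and 427 counts, or 6.35, 8.36 and 10.9 CPM, and 135, 136 and 210 TPM. Replicate 3 was again highest, at 1.48 times the mean of the other replicates, a smaller ratio than for any of the other 15 genes. Rnu3a and the Rnu3b sequence differ by an edit distance of 32 bases, so only reads that cover differing bases can be told apart. The 5′ parts are nearly the same, so the split between Rnu3a and Rnu3b is uncertain. Both Rnu3a entries together gave 0.971, 0.809 and 1.20 CPM, and all Rnu3b entries 5.38, 7.55 and 9.69 CPM. The second quantification, the authors' other transcript table, put every Rnu3b count on the 216-base entries and every Rnu3a count on the 214-base entry, and summed to 323, 784 and 921 counts.

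**Figure D2:**
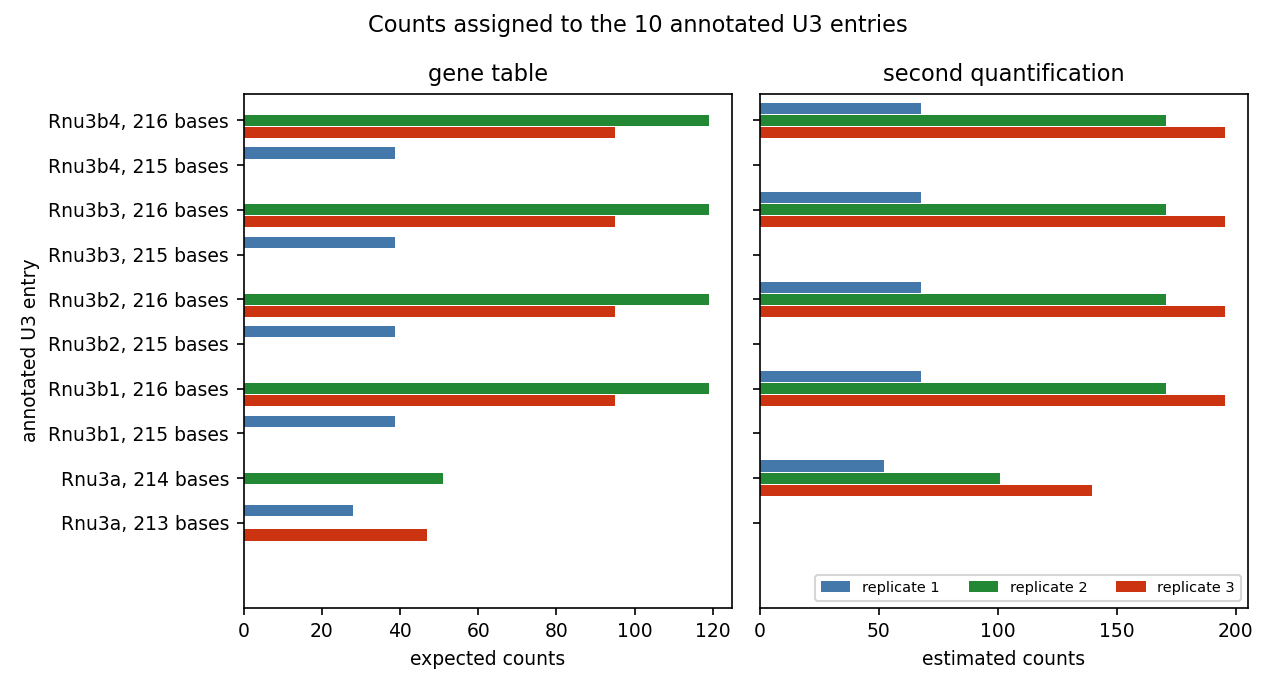
Counts on each of the 10 annotated U3 entries in replicates 1, 2 and 3: expected counts of the gene table (left) and estimated counts of the second quantification (right). In the gene table Rnu3b counts of replicate 1 lie on the 215-base entries (38.8 each) and those of replicates 2 and 3 on the 216-base entries (119 and 95 each), and Rnu3a likewise moves between its 213-base and 214-base entries. In the second quantification all replicates lie on the 216-base Rnu3b entries and the 214-base Rnu3a entry.

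Every one of the 20 genes had its highest CPM in replicate 3. Over the 14568 genes tested, 29.2% were highest in replicate 1, 38.8% in replicate 2 and 32% in replicate 3. Each of the 12 genes that reached the minimum in all 3 libraries, none of them U3, was also highest there. The 20 genes together had 60.6, 75.9 and 221 CPM. They took 0.00597% of the expected counts of replicate 1 (exact 95% interval 0.00569 to 0.00625), 0.00739% of replicate 2 (0.00718 to 0.00760) and 0.0230% of replicate 3 (0.0225 to 0.0235), or 0.0121% ± 0.00944 (SD, n = 3). The intervals cover counting error only, and they describe genes chosen by these same counts.

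A chi-square test of the rounded counts against the scaled library sizes asked whether a gene differs between the libraries by more than counting error. It compares libraries and not conditions. With Benjamini-Hochberg adjustment over all genes tested, 19 of the 20 departed, beside 72% of all genes (22.8% departed and were highest in replicate 3). Gm26083 did not (adjusted p = 0.142). The rule used these counts, so nothing is read from that count.

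The size of the departure is the log2(CPM + 1) of a library minus the mean of the other libraries. Its median over the 20 genes was -0.50, -0.66 and 1.01 in replicates 1, 2 and 3, and over all genes tested it was -0.05, 0.02 and -0.01. Over the 15 genes other than U3 it was -0.37, -0.73 and 1.19. In replicate 3, 16 of the 20 genes, 12 of them not U3, lay above the 95th percentile of all genes tested, which was 0.72. The U3 genes among the 16 were the Rnu3b genes, whose departure there rests on counts that moved between twin entries. Without replicate 3 the rule chose 12 genes, so part of the 20 entered through the library in which they were high. Nothing is therefore read from the number above the percentile. With the pseudocount of 1 CPM the largest departures in replicate 3 were those of Snora73b (1.88), Scarna2 (1.77), Snord17 (1.65), Gm22009 (1.64) and Snora73a (1.55). This order depends on the pseudocount. At 0.1 CPM the largest were Gm22988 (2.93), Snora73b (2.70), Snord17 (2.61) and the Rnu3b genes (2.50, which rests on the twin entries). Scarna2 stood there at 1.92 and Gm22009 at 1.67. The lowest were the Rnu3b genes in replicate 1 (-1.65), which rest on the twin entries, and Snora73b in replicate 2 (-1.44). The median biological coefficient of variation, the spread between libraries beyond counting error, was 0.746 for the 15 genes and 0.208 for all genes tested. Without replicate 3 the first fell to 0.375, and the value for all genes tested was 0.192. The 15 genes were chosen by these counts and were not matched to the other genes by level.

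Long noncoding RNAs listed here as nuclear-retained were high in the same library, while other small structural RNAs were mixed. Of 8 such long noncoding RNAs looked up, 6 could be tested and all 6 were highest in replicate 3, while Meg3 and Tsix were at 0. Among the 6, Gm26917 gave 4753 of the summed 11206 CPM in replicate 3. Malat1, found in nuclear speckles, had 1015, 719 and 6078 CPM, and Neat1, on which paraspeckles form, had 87.6, 69.3 and 334 CPM. The snRNA genes include those of spliceosomal RNAs on which scaRNAs act. Under the same count rule they gave 24 of 1383 genes, chosen by these same counts. Of the 24, 23 were highest in replicate 3, beside 32% of all genes tested. The 24 are annotated entries, and how many separate RNAs they stand for was not tested. The summed CPM of the 24 was 77.2, 86.3 and 158. Of 7 other small structural RNA genes tested, 2 were highest in replicate 3 and 5 in replicate 2. These are entries and not separate RNAs: Rn7s1 and Rn7s2 had nearly equal counts, and Rmrp has overlapping entries. The Rmrp entries had 420, 784 and 347 CPM and 500, 886 and 1421 CPM, so the order of Rmrp was not resolved. Rpph1, the RNA of nuclear RNase P, had 4032, 8256 and 7974 CPM, highest in replicate 2. Terc, the box H/ACA RNA of telomerase, had 0.381, 0.413 and 0.255 CPM. Terc rested on 11, 26 and 10 counts and did not depart between the libraries. Rn7sk, which holds back transcription elongation in the nucleus, had 4604, 9866 and 13866 CPM. The part of nuclear RNA in the high values of replicate 3 was not tested.

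**Figure D3:**
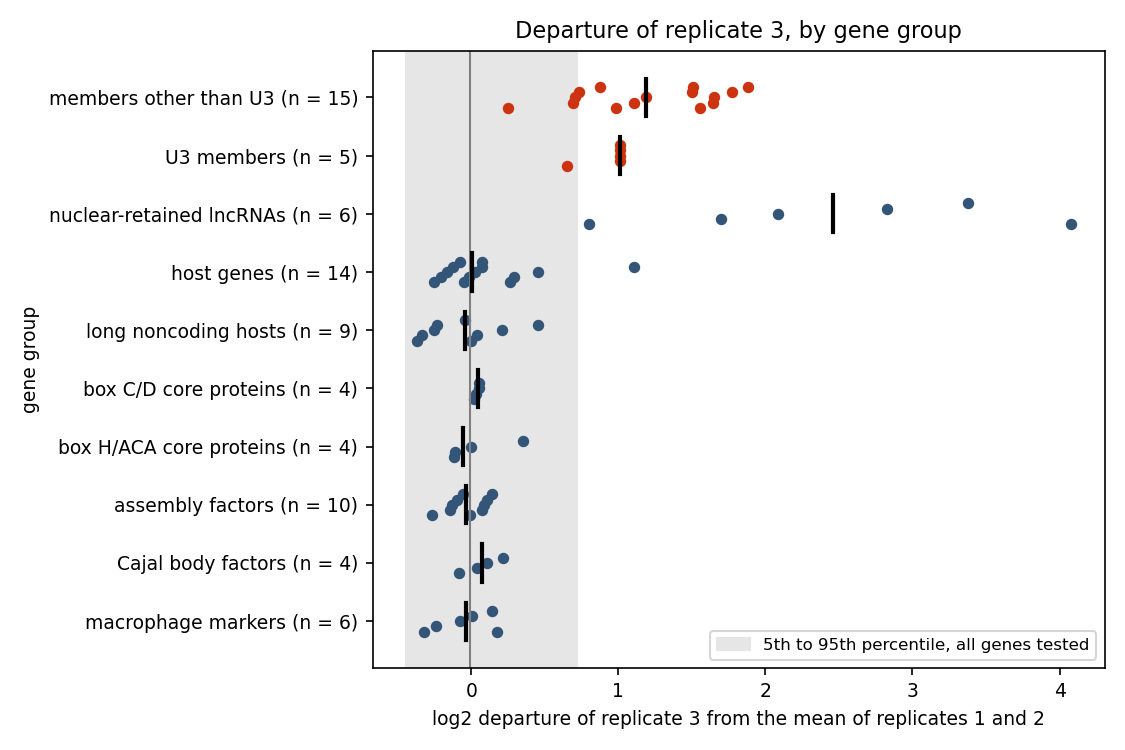
Log2 departure of replicate 3 from the mean of replicates 1 and 2, with 1 point per gene tested, a black bar for the group median and a grey band from the 5th to the 95th percentile of all 14568 genes tested. The counted snoRNA and scaRNA genes have medians of 1.19 (other than U3) and 1.01 (U3 entries). The medians are 0.00 for their host genes and 2.46 for the RNAs listed as nuclear-retained, Gm26917 among them. The U3 value rests on counts that moved between twin entries.

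Messenger RNAs of the proteins that bind snoRNAs were ordered differently between the libraries. The box C/D core genes Fbl, which encodes the methylase fibrillarin, Nop56, Nop58 and Snu13 had mean levels of 9.74, 13.3, 13.8 and 12.5 TPM. None of these 4 was highest in replicate 3 by CPM, and all 4 were highest in replicate 2. The box H/ACA core genes Dkc1, which encodes the pseudouridine synthase dyskerin, Nop10, Nhp2 and Gar1 had mean levels of 1.11, 4.65, 12.9 and 4.82 TPM. Of these 4, Dkc1 was highest in replicate 3, at 2.77, 4.94 and 5.05 CPM. None of 10 snoRNP assembly factors and 1 of 4 Cajal body and trafficking factors (Phax, an RNA export adaptor) was highest in replicate 3.

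The host genes were also ordered differently. An annotated gene on the same strand surrounded 18 of the 20 genes, and Scarna2 and Rnu3a had none. Surrounding genes are called hosts here by position only, and whether the RNAs are cut from them was not tested. Tex14 was counted as a host in this way for the Rnu3b genes. Of the 14 host genes, 5 were highest in replicate 3, and their median departure there was 0.00. Kpna4, the host of Gm22009, stood at 135, 111 and 118 CPM, with replicate 1 highest. Snx5, the host of Snord17, stood at 384, 290 and 351 CPM, and Rcc1, one of the hosts of the Snora73 genes, at 5.51, 6.11 and 5.08 CPM. Snhg20, the host of Gm26083, departed most among the hosts in replicate 3, with 0.596, 0.446 and 2.27 CPM. Of 9 long noncoding snoRNA hosts, 3 were highest in replicate 3 (Gas5, Snhg1 and Snhg5).

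Part of the counted genes overlap exons of other transcripts on the same strand, and the reads of both cannot be told apart where they share bases. This held for 13 of the 20 genes and for 8 of the 15 other than U3. Gm22988 lies whole within an exon of Eif4a1-202, a transcript with a retained intron that held 55.1, 71.1 and 307 expected counts. Snord22 lies whole within Snhg1-215 (8.28, 14.5 and 75.3 counts) and Snhg1-203 (3.18, 18.8 and 27.1 counts). Gm26083 lies whole within Snhg20-203, which held 4.45, 6.81 and 49.1 counts, and within Snhg20-201, which held 2.16, 0 and 0. Of these 5 transcripts, all but Snhg20-201 were highest in replicate 3 in their counts. Snhg1-213, which also holds all of Snord22, was at 0. Transcripts that overlap in part were mixed. Phb2-205, over Gm23547, held 0.01, 74.6 and 30.3 counts, and Eif4g2-211, over Gm23262, held 4.02, 4.97 and 21.3. Ncapd2-203 and Gm28967-201, over Scarna10, were at 0. The share of reads that came from the longer transcript was not tested. Gm22009, Scarna2, Gm25395, Scarna6, Snord17, Gm25776 and Snora73b share no exon base with another same-strand transcript. Each was highest in replicate 3, as were the other counted genes. Snora73b lies whole within an exon of Gm17300 on the other strand. Whether reads of unspliced host RNA were counted for genes that lie in introns was not tested.

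**Figure D4:**
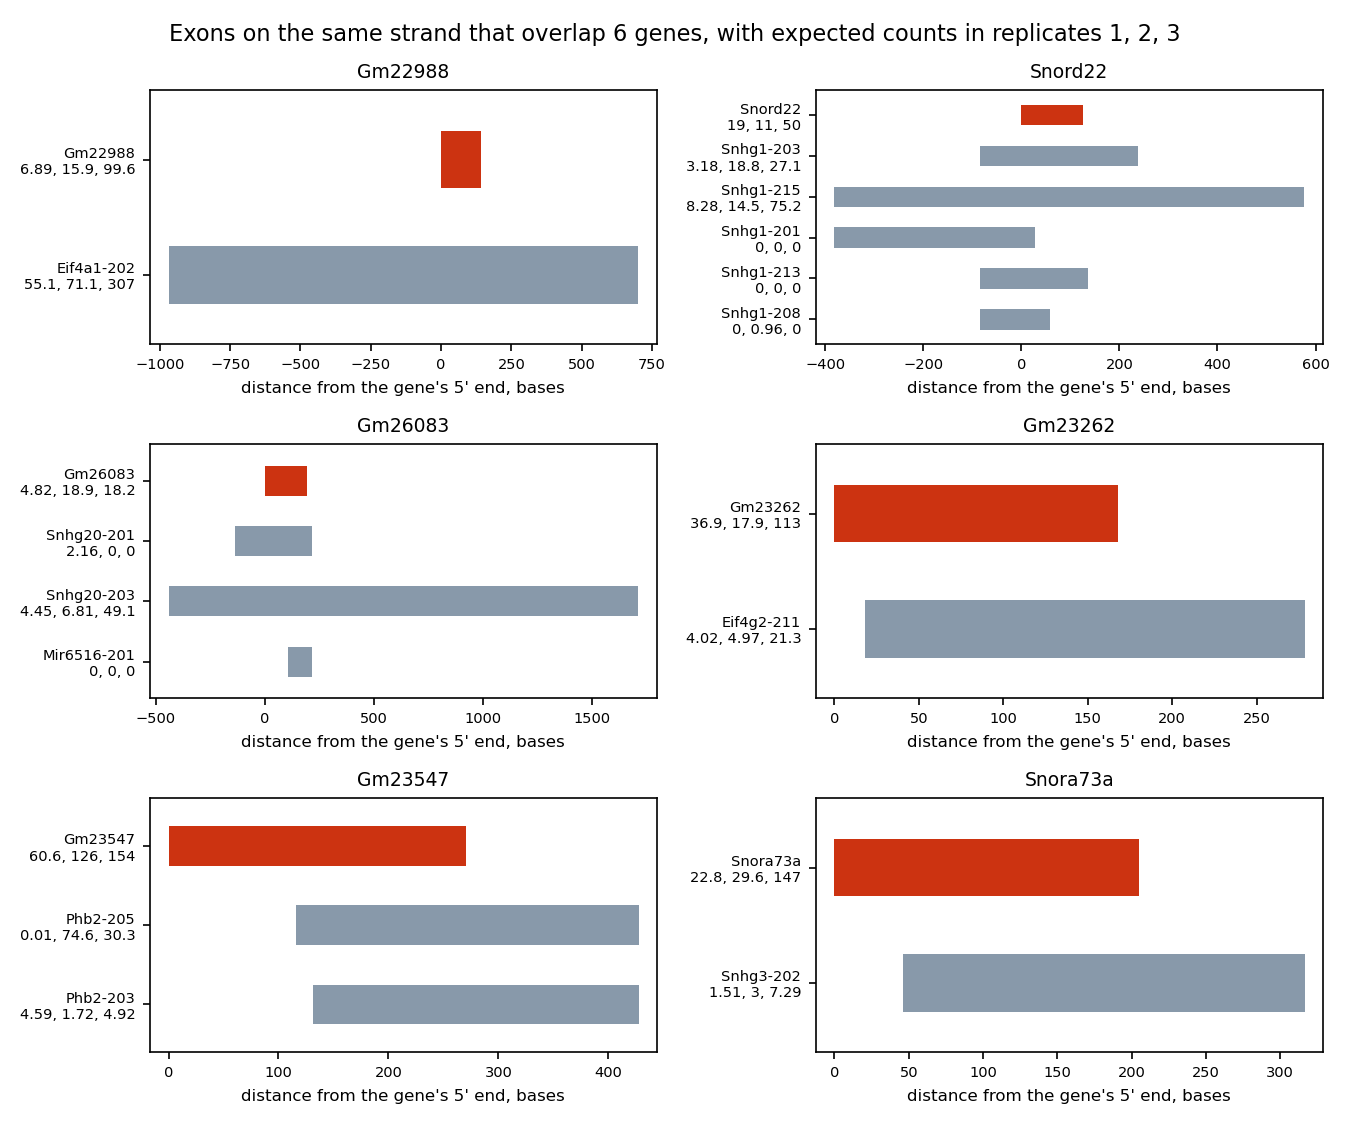
Exons on the same strand (grey) that overlap 6 of the counted genes (red), by distance in bases from the 5′ end of the gene, with the expected counts of each gene or transcript in replicates 1, 2 and 3 beside its name. Gm22988, Snord22 and Gm26083 lie whole within a longer exon, such as Eif4a1-202 with 55.1, 71.1 and 307 counts, while Gm23262, Gm23547 and Snora73a overlap one in part.

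Counts and TPM order the genes differently, because TPM divides by an effective length that nears 0 for short genes. Gm22009, of 343 bases, had an effective length of 127, 135 and 126 bases in replicates 1, 2 and 3 and stood at 156, 166 and 527 TPM. Snord22, of 126 bases, had effective lengths of 1.07, 0 and 1.01 bases. It therefore stood at 384 TPM in replicate 1 on 19.0 counts, at 0 TPM in replicate 2 on 11.0 counts, and at 714 TPM in replicate 3 on 49.9 counts. Among the 20 it ranked 17 by mean count and 1 by mean TPM. Gm22988, with effective lengths of 3.54, 3.39 and 3.34 bases, stood at 42.2, 38.7 and 431 TPM. In replicate 3 the Spearman correlation of count and TPM over the 20 genes, which share libraries and rule, was 0.34 as a description.

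The classes shift in the same way. The scaRNA class held 83.6% of the counts of the 20 in replicate 3 but 29.6% of their TPM, and Snord22 alone held 24.5% of that TPM. In replicate 1 the class held 27.9% of the TPM of the 20 and Snord22 39.4%. In replicate 2, where the effective length of Snord22 was 0, the class held 53.1% and Snord22 0%. The 20 genes held 0.0974%, 0.0490% and 0.291% of all TPM (0.146% ± 0.128, SD, n = 3). The median of log2(TPM + 1) over them was 4.67 ± 0.88 (SD over libraries, n = 3). Effective length was 0 for 699, 729 and 699 of the 1558 annotated genes. Of the 699 with 0 in all libraries, the longest was 125 bases and 4 had any count.

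**Figure D5:**
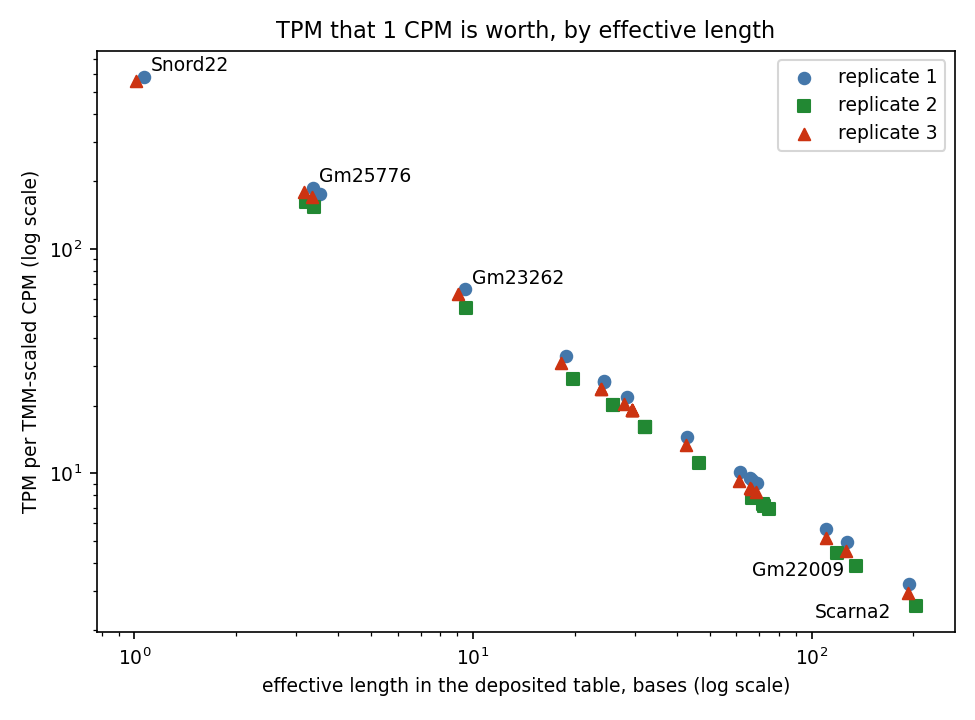
TPM divided by TMM-scaled CPM for each of the 20 genes in each library, against effective length in bases, both axes on log scales; entries at 0 are left out. Genes with effective lengths near 1 base (Snord22) have far more TPM per CPM than genes above 100 bases (Gm22009, Scarna2).

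Near the minimum, ranked by the second-highest count, the genes just inside were Gm25776 (13), Gm22988 (15.9) and Scarna6 (16). Those just outside were Snord15b with 3.94, 7.88 and 42.9 counts, Snord15a with 4, 7 and 21, and Gm26448 with 6, 7 and 20. In all, 11 genes reached 10 counts in 1 library only, of which 6 did so in replicate 3, and the rest, 4 in replicate 1 and 1 in replicate 2, were U3 twin entries. By library, 18, 19 and 26 genes reached the minimum in replicates 1, 2 and 3, and 68 annotated genes had any count at all.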

How the data were processed

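For every library a gene table and transcript tables were used. Per the file headers the authors gave expected counts, TPM, effective lengths and TPM interval bounds in the gene table, and deposited estimated counts and TPM in a second transcript table, summed here per gene. The deposited read-me notes name mm10 and annotation M21. Aligner, quantifiers and strand setting: not given in the sources used here. Type and gene ID came from the identifiers of the second table, and positions and sequences from GENCODE M21.

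Of 81881 rows, 55536 were genes. The other 26345 rows name no gene, held 0.350%, 0.169% and 0.168% of expected counts in replicates 1, 2 and 3, and were left out of library sizes. Expected counts were rounded for TMM and the coefficient of variation (edgeR 4.0.16), DESeq2 1.42.0 size factors as an alternative, and the chi-square test, limited to genes that reached 10 counts in any library. Software was Python 3.11.15 (scipy 1.17.1, pandas 2.3.3, numpy 2.4.6, matplotlib 3.10.9) and R 4.3.3. Departures used a pseudocount of 1 CPM. The chi-square test was tried on counts simulated with counting error only, for 14568 genes with 50 changed per fold size. It called 72% of those raised 1.5-fold in 1 library, 76% for 2-fold, 98% for 4-fold and 100% for 8-fold. Of the unchanged it called 0.0418%. The simulation held no other spread between libraries, so these rates do not carry over to the real libraries.

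The genes and lists were chosen with earlier results of these data known. Genes named are the 6 highest of each class, the 3 on each side of the minimum, the 5 furthest in each direction between libraries and between quantifications, the pre-rRNA processing snoRNAs, hosts and list genes. The genes in the second quantification only and the overlapping transcripts were chosen after their values were seen.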

Additional observations from a re-analysis of the deposited data

How the results depend on the processing

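The 20 genes became 25 and 15 at minimums of 5 and 20 counts, 12 with the minimum in all 3 libraries, 26 in the second quantification, and 12 to 18 with 1 library left out (12 without replicate 3). Summing identical sequences gave 17. Box C/D genes numbered 4 and 1 at minimums of 5 and 20. The share of TPM was 0.520% of the protein-coding total and 0.0317% of all TPM in the second quantification. Of the 20, 19 departed with DESeq2 size factors (71.8% of all genes), library totals (71.9%) and no filter (17.9%), and 18 in the second quantification (82.9%). With 1 library left out 15, 18 and 11 did without replicates 1, 2 and 3, beside 57.1%, 52.7% and 54% of all genes. The median departure of replicate 3 was 1.95 with a pseudocount of 0.1, 0.82 in the second quantification, and 1.10 to 1.44 with another library left out. That of replicate 1 ranged from -1.44 to 0.074, turning positive without replicate 3, and that of replicate 2 from -1.10 to -0.074. All 20 genes stayed highest in replicate 3 with DESeq2 size factors, library totals and the other pseudocount, and 19 in the second quantification, where the shorter Rnu3a entry had no count. The median log2(TPM + 1) was 3.14 in the second quantification. The coefficient of variation ranged from 0.375 (without replicate 3) to 0.798. The cause of these shifts was not tested. The low-count filter does not enter a departure, so it gave no other value there. No paired analysis was possible because there is 1 group. Genes with few counts, such as Gm26083, limit what can be seen at this depth.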

Other observations

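The second quantification placed 7 more snoRNA or scaRNA genes at the minimum. Gm24339, of 76 bases, had 10, 33 and 89 estimated counts in replicates 1, 2 and 3, and Gm24336, of 146 bases, had 14, 15 and 28, while both were at 0 in every gene table. Gm22442, an scaRNA gene of 144 bases, had 15, 28 and 63 estimated counts against expected counts of 1, 2 and 2. Gm22781 had 9, 15 and 37 against 0, 0 and 1. Gm25835 had 9, 10 and 51 against 6, 3 and 31. The other two were Snord118 and Rnu3a of 214 bases. Among the 20 counted genes, the second quantification gave 2.03 times the mean count for each Rnu3b gene, 1.32 times for Snord22 and 0.958 times for Gm22988, and 1.03 and 1.04 times for Gm22009 and Scarna10.

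Genes that reached the minimum in replicate 3 alone, apart from those just outside it, were Snora74a with 6.96, 5.96 and 33.7 counts, Gm25835, and Gm26447 with 4.98, 4.99 and 28.9 counts. No miRNA gene met the same count rule.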
